A study of Mus musculus with 6 samples.

Results

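The mitochondrial carriers of the Slc25 family were examined in Klf5-deleted and control embryonic mouse gut collected at E14.5. The members were all genes whose symbol is Slc25a followed by a number and that had a row of their own on the array, with the brightest row taken for each gene. This gave 46 of the 19938 genes measured. RNA came from segments of intestine about 1.5 cm anterior to the cecum and was measured on Affymetrix Mouse Gene ST arrays, with 3 arrays per group and 2 pooled intestines per array. The Klf5-deleted samples have the genotype Klf5D/D. The controls had both Klf5 alleles intact (Klf5wt/wt) together with ShhEGFP/Cre, a knock-in that expresses Cre recombinase where Sonic hedgehog is active, which in the gut is the epithelium. Whether the Klf5D/D embryos carried that allele is not listed in their genotype label. Both groups were of the mixed strain background that is part C57Bl/6.

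SLC25 proteins are small membrane proteins that exchange metabolites, nucleotides, phosphate, cofactors or iron across the inner mitochondrial membrane. They share a fold of repeated helical pairs, are made in the cytosol and are imported through the TOM complex and the small TIM chaperones. In the fetal and newborn gut the epithelium makes citrulline in its mitochondria, which needs an ornithine carrier beside the enzymes. KLF5 is a zinc-finger transcription factor of epithelia that binds GC-rich and CACCC-type DNA.

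Values were log2 signals, so a difference of 1 is a 2-fold change. The signal of Klf5 was 10.24, 10.49 and 10.34 in the 3 Klf5-deleted arrays, against 11.55, 11.74 and 11.77 in the controls (log2 fold change −1.33, SE 0.08, adjusted p = 9.62e-05 with limma). Correlations between arrays were 0.994 to 0.997 inside groups and 0.989 to 0.993 across them, and array medians lay between 7.81 and 7.89. All 19 measured epithelial marker genes were lower in the Klf5-deleted arrays and passed the test (median −0.85), and their summed linear signal was 22963 to 27320 in the Klf5-deleted arrays, against 47560 to 49017 in the controls. Of 16 gut mesenchyme genes 5 rose and 0 fell, with summed signals of 60417 to 63647 in Klf5-deleted arrays, against 55154 to 56904 in controls. In whole tissue, fewer epithelial cells and less of an RNA per epithelial cell cannot be told apart, and the part of this shift in any carrier result was not tested. The groups also differed in Y-linked signal. The summed linear signal of 3 Y-linked genes was put on a relative scale, called the male share here, on which the array with the least signal is 0% and the mean of the Klf5-deleted arrays is 100% by construction. On it the Klf5-deleted pools lay at 95.0% to 103%, against 0%, 47.1% and 40.8% in control replicates 1 to 3. The scale orders the pools and does not show that any pool was all male or all female.

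Of the 46 carrier genes, 6 fell and 4 rose in the Klf5-deleted intestine at an adjusted p of 0.05, and 36 did not pass. The genes that fell were Slc25a15, Slc25a1, Slc25a10, Slc25a43, Slc25a39 and Slc25a5, and those that rose were Slc25a21, Slc25a53, Slc25a27 and Slc25a30. The 10 called carriers were 21.7% of the family, where 17.5% of all genes were called. By direction, 13.0% of the carriers fell, against 8.58% of all genes, and 8.70% of them rose, against 8.95% of all genes. The family's count is thus near that of all genes on the array. The median log2 fold change was −0.00 over the carriers and 0.02 over all genes. The groups did not overlap for 19 carriers (41.3%), 11 lower and 8 higher, against 36.0% of all genes. Of all genes, 15.9% had groups that did not overlap and were lower and 20.1% were higher, against 23.9% and 17.4% of the carriers. Changes were small outside Slc25a15, whose fall was the only one to reach 2-fold among the called carriers. Of the 10 calls, 7 were kept in each of the 6 fits that left out 1 array, and those of Slc25a5, Slc25a53 and Slc25a30 were not.

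**Figure D1:**
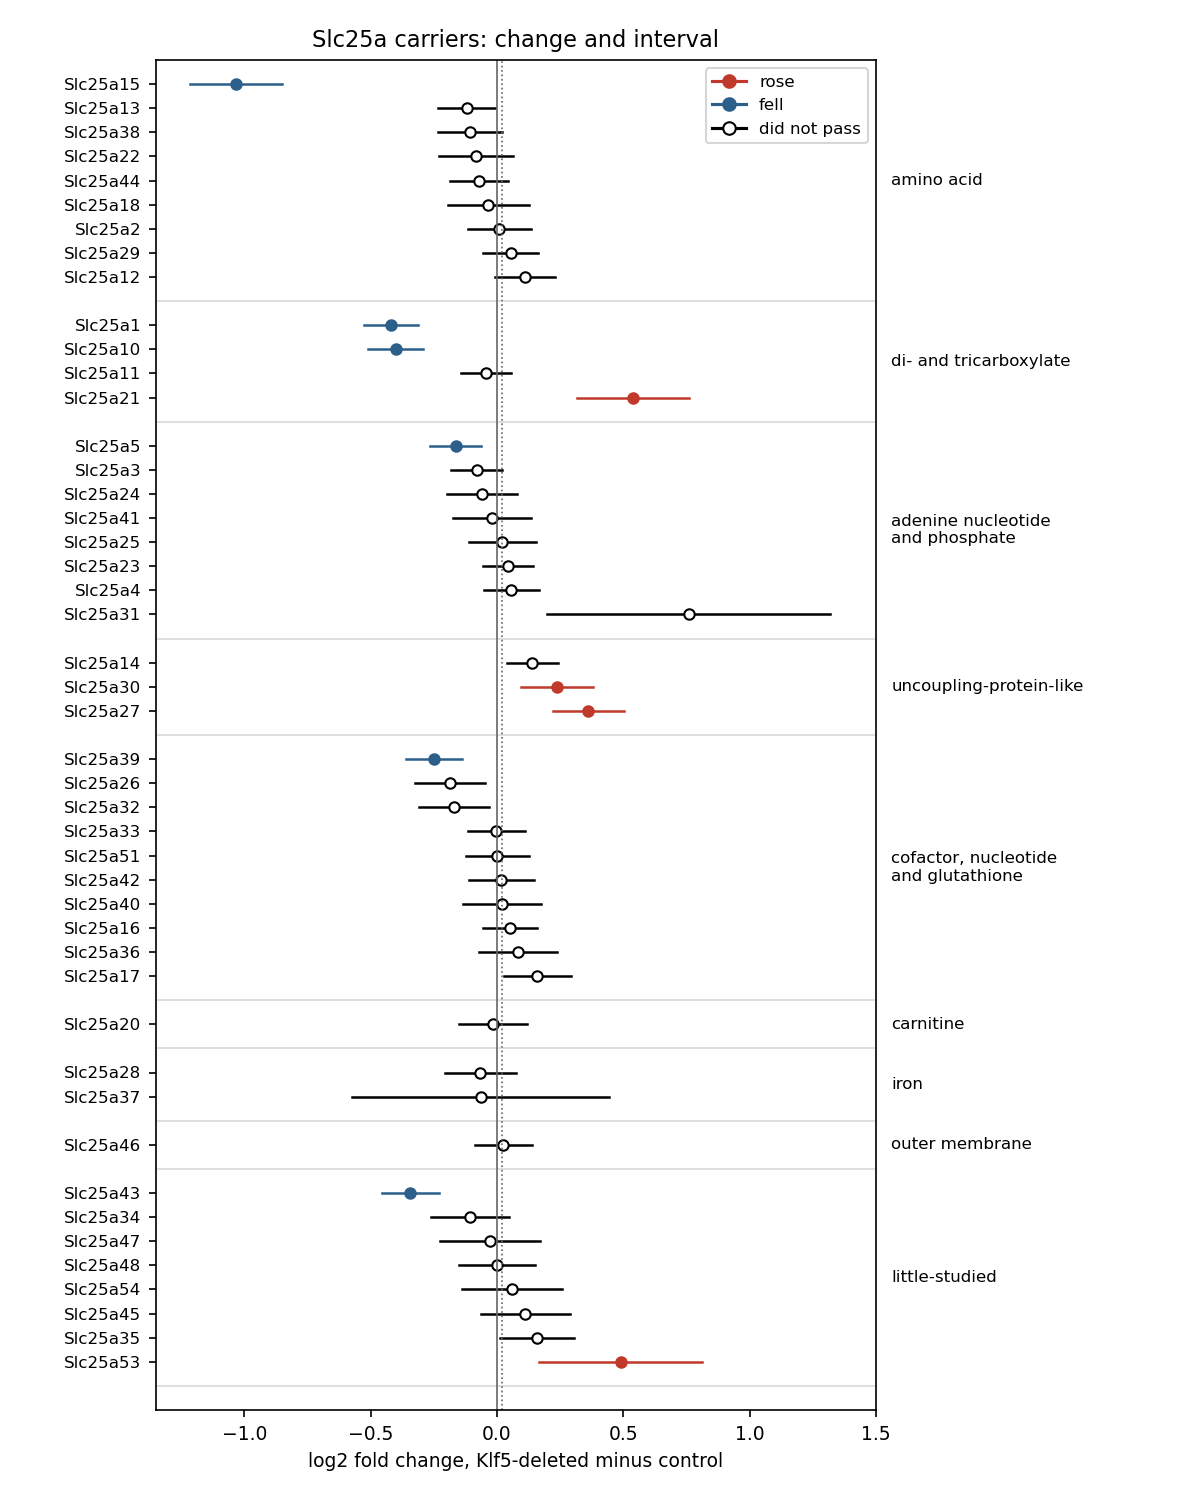
Log2 fold change of each of the 46 carrier genes (horizontal axis, Klf5-deleted minus control) with its 95% interval from limma, grouped by the kind of substrate. Filled points passed an adjusted p of 0.05; the dotted line is the median of all genes (0.02). Slc25a15 lies apart at −1.03, and most other carriers lie within 0.2 of 0.

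The promoters of 5 carriers are shown because these are the 3 largest falls and the 2 rises outside the X chromosome that have an entry among the promoter sequences. Each is 300 bases, 250 before and 50 after the annotated start, 5′ to 3′ on the gene's strand, from RefSeq on build GRCm38.p6. Capitals mark CACCC and GGGCGG, the core letters of the CACCC box and the GC box to which KLF and SP factors bind, read on both strands (GGGTG and CCGCCC on the other).
Slc25a15 promoter, chr8:22398572-22398871 (minus strand): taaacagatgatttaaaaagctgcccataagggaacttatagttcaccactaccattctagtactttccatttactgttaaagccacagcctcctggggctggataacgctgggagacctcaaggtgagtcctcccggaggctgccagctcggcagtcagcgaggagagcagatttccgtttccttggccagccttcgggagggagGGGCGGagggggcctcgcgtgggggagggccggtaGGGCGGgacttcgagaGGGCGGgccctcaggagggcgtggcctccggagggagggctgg
Slc25a1 promoter, chr16:17928170-17928469 (minus strand): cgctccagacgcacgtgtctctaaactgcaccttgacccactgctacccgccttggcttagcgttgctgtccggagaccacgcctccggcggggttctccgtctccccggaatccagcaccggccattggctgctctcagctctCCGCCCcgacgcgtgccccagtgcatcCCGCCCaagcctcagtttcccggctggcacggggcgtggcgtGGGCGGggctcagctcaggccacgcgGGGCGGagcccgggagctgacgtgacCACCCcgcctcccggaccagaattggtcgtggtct
Slc25a10 promoter, chr11:120491587-120491886 (plus strand): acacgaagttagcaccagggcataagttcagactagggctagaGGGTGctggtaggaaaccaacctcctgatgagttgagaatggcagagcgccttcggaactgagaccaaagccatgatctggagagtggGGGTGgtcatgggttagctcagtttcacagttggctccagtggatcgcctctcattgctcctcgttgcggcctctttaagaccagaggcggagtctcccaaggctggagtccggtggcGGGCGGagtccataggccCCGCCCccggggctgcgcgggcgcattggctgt
Slc25a21 promoter, chr12:57197423-57197722 (minus strand): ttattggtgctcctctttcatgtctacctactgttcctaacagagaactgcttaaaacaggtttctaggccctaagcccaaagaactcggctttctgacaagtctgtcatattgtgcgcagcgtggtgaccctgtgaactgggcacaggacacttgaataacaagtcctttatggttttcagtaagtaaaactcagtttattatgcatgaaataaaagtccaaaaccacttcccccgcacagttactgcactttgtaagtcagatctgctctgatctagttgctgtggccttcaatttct
Slc25a30 promoter, chr14:75786988-75787287 (minus strand): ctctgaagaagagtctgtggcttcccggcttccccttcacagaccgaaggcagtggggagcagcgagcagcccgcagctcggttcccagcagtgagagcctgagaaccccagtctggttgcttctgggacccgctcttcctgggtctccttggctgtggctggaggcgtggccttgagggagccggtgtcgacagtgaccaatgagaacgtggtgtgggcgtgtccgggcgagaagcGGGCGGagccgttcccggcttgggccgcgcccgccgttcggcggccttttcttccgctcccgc

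Slc25a15 had 3 GC boxes and 0 CACCC boxes in this window, Slc25a1 had 4 and 1, and Slc25a10 had 2 and 2. Slc25a21 had neither, and Slc25a30 had 1 GC box. A promoter entry existed for 36 of the 46 carriers. Of these, 30 (83.3%) held a GC box and 25 (69.4%) a CACCC box, against 49.9% and 60.2% of the promoters of the 15614 measured genes with an entry, and 35.9% and 56.8% of all 27025 promoters. The 2 motifs can share bases. All 6 promoters of carriers that fell held a GC box and 5 of them a CACCC box. Among the 3 rises with an entry, 2 held a GC box and 1 a CACCC box. The NRF1 motif (GCGCA, any base, then GCGC) was in 2 of the 36 carrier promoters, against 7.31% of the measured genes' promoters. The ERR motif (TNAAGGTCA) and the HNF4 motif (CAAAGTCCA), both read on either strand, were in 0 of 36, against 0.986% and 0.448%. These matches are letters in a window and do not show binding.

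Among the 9 amino acid carriers, 1 fell and 0 rose. Slc25a15, which encodes the ornithine/citrulline carrier of the inner membrane, read 9.44, 9.68 and 9.49 in Klf5-deleted arrays, against 10.52, 10.52 and 10.67 in controls. Every Klf5-deleted array lay below every control array, and the signal was 48.9% of the control level (log2 fold change −1.03, SE 0.08, 95% interval −1.21 to −0.85, adjusted p = 0.000194). Slc25a13, the aspartate/glutamate carrier citrin, read 9.92, 9.98 and 9.92 in Klf5-deleted arrays, against 10.04, 10.02 and 10.12 in controls. These groups did not overlap, but the difference did not pass (−0.12, SE 0.05, adjusted p = 0.138). Its paralog Slc25a12, aralar, which carries the same substrates, read 11.15, 11.04 and 11.10 in the Klf5-deleted arrays, against 10.94, 11.05 and 10.98 in the controls, and did not pass (0.11, SE 0.05, adjusted p = 0.2). Within each array, the log2 ratio of Slc25a12 to Slc25a13 was 1.16 ± 0.09 in the Klf5-deleted arrays and 0.93 ± 0.09 in the controls (SD, n = 3 each). That difference of 0.23 gave p = 0.1 in the exact two-sided permutation test, the smallest value that 3 arrays against 3 allow. Of 8 such ratios between carriers, 7 gave this value (0.114 after Benjamini-Hochberg adjustment over the 8) and 1, that of the mitoferrins, gave p = 1.0 in the exact test. The value means only that the groups did not overlap, which held for 36.0% of all genes taken singly. For Slc25a10 with Slc25a21 and Slc25a1 with Slc25a21 it was fixed beforehand, as each sets a called fall against a called rise. It was also fixed for Slc25a15 with Slc25a13 and for Slc25a10 with Slc25a11. There the gap between the groups in the first gene exceeds the whole range of the second. The count of 7 is therefore not read as a result. Slc25a44, the branched-chain amino acid carrier gene, was at −0.07 (SE 0.05, adjusted p = 0.409) with groups that did not overlap. The other 5 amino acid carriers, among them the glutamate carriers Slc25a18 and Slc25a22 and the glycine carrier Slc25a38, lay between −0.11 and 0.05.

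Of 12 measured genes for enzymes of ornithine and citrulline metabolism, 6 fell and 0 rose, with a median of −0.33. Cps1, which makes carbamoyl phosphate, read 8.28, 8.96 and 8.77 in Klf5-deleted arrays, against 12.7, 12.7 and 12.7 in controls. Otc, ornithine transcarbamylase, which is X-linked, joins that product to ornithine to give citrulline. It read 5.36, 5.83 and 5.79 in Klf5-deleted arrays, against 8.04, 8.31 and 8.04 in controls (−2.47, SE 0.14, adjusted p = 5.54e-05). The Klf5-deleted signals of Otc are low on the array, where the scale starts at 3.51. Aldh18a1, which starts the route from glutamate to ornithine, fell by 0.67 (SE 0.05, adjusted p = 0.000152). Asl, argininosuccinate lyase, fell by 0.48 (SE 0.07, adjusted p = 0.00481). Cps1 fell by 4.03 (SE 0.15), more than the carrier Slc25a15, and Aldh18a1 and Asl changed less than it. Arg1 and Arg2, the arginases, did not pass, at −0.06 (SE 0.05) and 0.12 (SE 0.11), and were named after their values were seen.

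**Figure D2:**
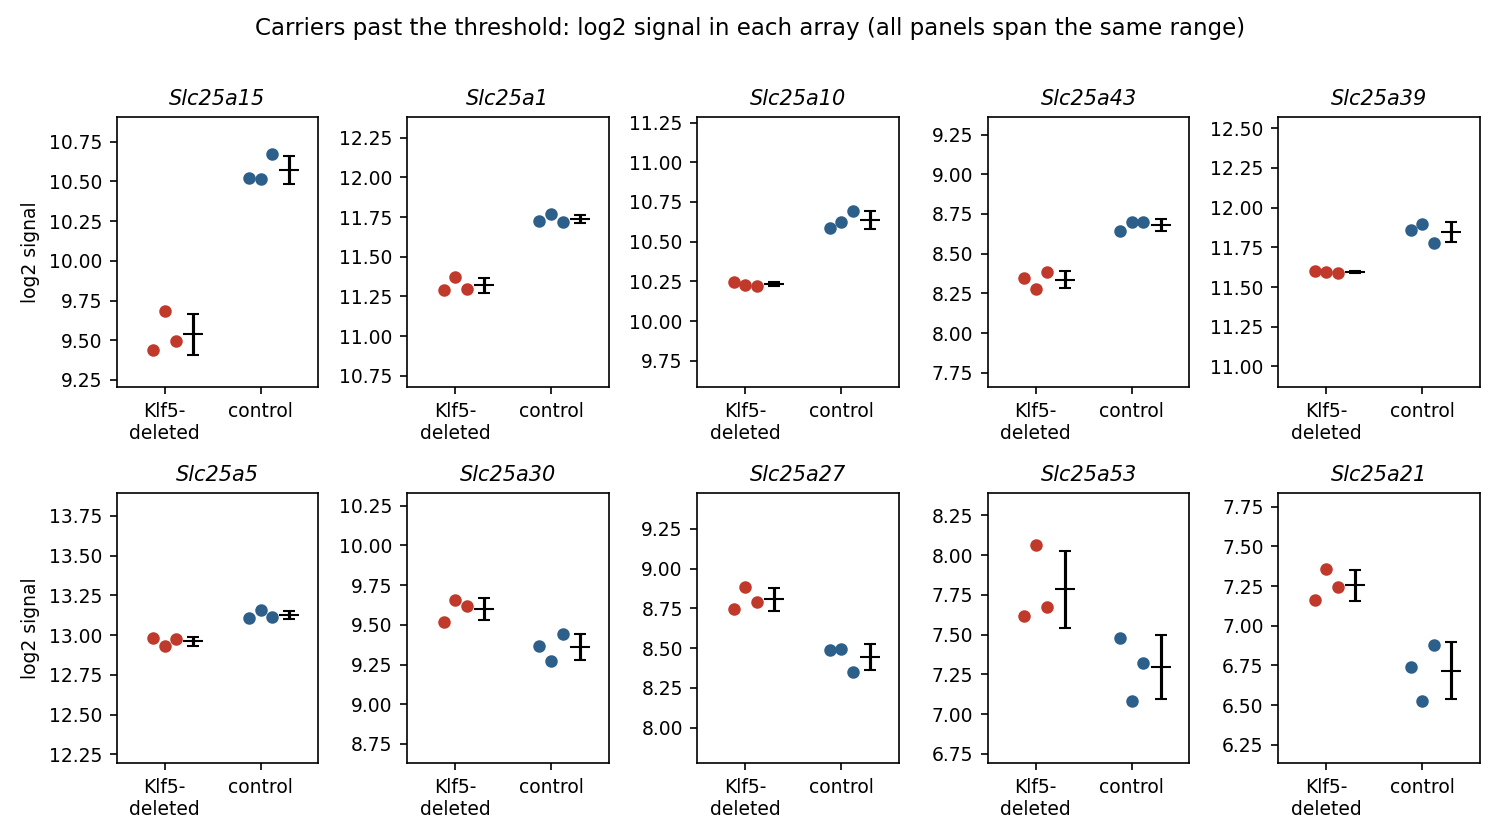
Log2 signal of the 10 called carriers in each of the 3 Klf5-deleted (left in each panel) and 3 control arrays (right), with mean ± SD as bars; the vertical axes differ in level but span the same range. The groups are apart in every panel, most widely for Slc25a15, and the Klf5-deleted arrays scatter most for Slc25a53.

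The 4 di- and tricarboxylate carriers changed in both directions, with 2 falls and 1 rise. Slc25a1, the citrate carrier, which exports citrate for lipid synthesis, read 11.29, 11.37 and 11.30 in the Klf5-deleted arrays, against 11.73, 11.77 and 11.72 in control arrays. The Klf5-deleted signal was 74.8% of the control level (−0.42, SE 0.05, adjusted p = 0.00109). Slc25a10, the dicarboxylate carrier, which exchanges malate or succinate for phosphate, read 10.25, 10.23 and 10.22 in Klf5-deleted arrays, against 10.59, 10.62 and 10.69 in controls (−0.40, SE 0.05, adjusted p = 0.00142). Both genes separated the groups by more than the spread within either. Slc25a21, the oxodicarboxylate carrier, which takes part in lysine and tryptophan breakdown, rose. It read 7.16, 7.35 and 7.24 in Klf5-deleted arrays, against 6.74, 6.52 and 6.88 in controls, 1.45-fold higher (0.54, SE 0.10, adjusted p = 0.00854). These signals are dim, below the array medians of 7.81 to 7.89. Slc25a11, the oxoglutarate/malate carrier of the malate-aspartate shuttle, did not pass (−0.04, SE 0.04, 95% interval −0.14 to 0.06, adjusted p = 0.574). Within arrays, the log2 ratio of Slc25a10 to Slc25a11 was −1.72 ± 0.02 in the Klf5-deleted arrays and −1.36 ± 0.05 in the controls (SD, n = 3 each, exact permutation p = 0.1). That p value was fixed by the separation of Slc25a10 and adds nothing to its call.

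Of 7 genes of citrate and cytosolic lipid synthesis, 2 fell and 0 rose. These were Acss2, the cytosolic acetyl-CoA synthetase (−0.28, SE 0.08, adjusted p = 0.0435), and Idh1, cytosolic isocitrate dehydrogenase (−0.23, SE 0.06, adjusted p = 0.0467). Acly, which splits the exported citrate, was at −0.05 (SE 0.05, adjusted p = 0.6) and was named after its value was seen. Of 7 genes of the malate-aspartate and glycerophosphate shuttles, 2 fell and 0 rose. They were the glycerophosphate dehydrogenase gene Gpd2 (−0.24, SE 0.05, adjusted p = 0.0207) and Gpd1l, the Gpd1-like gene (−0.21, SE 0.06, adjusted p = 0.04). The 4 malate and aspartate enzymes, Mdh1, Mdh2, Got1 and Got2, lay between −0.10 and −0.01 and did not pass; they were named after their values were seen.

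All 3 carriers related to uncoupling proteins were higher in every Klf5-deleted array than in any control, and 2 of them rose by the test. Of all genes, 20.1% were higher without overlap and 8.95% rose. With only 3 genes, the count is not read as a trait of this subgroup. Slc25a27, also called UCP4 and known from brain, read 8.74, 8.89 and 8.79 in Klf5-deleted arrays, against 8.49, 8.50 and 8.35 in controls (0.36, SE 0.06, adjusted p = 0.00707). Slc25a30, known from kidney, read 9.52, 9.65 and 9.62 in Klf5-deleted arrays, against 9.37, 9.27 and 9.44 in controls (0.24, SE 0.06, adjusted p = 0.0359). Slc25a30 no longer passed when Klf5-deleted replicate 2 or 3 was dropped (adjusted p of 0.101 and 0.108), when control replicate 1 or 2 was dropped (0.0851 and 0.116), or with arrays centred on their medians (0.0718). A block for the replicate number also lost its call (adjusted p = 0.0946). Slc25a14, also called UCP5 and X-linked, read 7.66, 7.63 and 7.63 in Klf5-deleted arrays, against 7.50, 7.46 and 7.54 in controls. It did not pass (0.14, SE 0.04, adjusted p = 0.0671). Beside these, 2 of 11 measured enteric neuron and glia genes rose and 0 fell: Hand2 (0.38, SE 0.05) and Sox10 (0.39, SE 0.07), both factors of neural crest derivatives. The neuronal genes Elavl3 and Elavl4 were at 0.09 (SE 0.09) and 0.08 (SE 0.08) and did not pass; they were named after their values were seen. The summed signal of that list was 16516 to 18990 in Klf5-deleted arrays, against 15600 to 16074 in controls, and its part in the rise of Slc25a27 was not tested. The uncoupling protein genes Ucp1 and Ucp3 themselves, which fall outside the naming rule, were at 0.01 (SE 0.05) and 0.03 (SE 0.07). Their signals were low, with means in Klf5-deleted and control arrays of 6.36 and 6.35 for Ucp1 and 6.70 and 6.67 for Ucp3. Of 5 listed carriers outside the rule, 4 were measured, and Ucp2 was not among these 4. Of the 4, Mtch2, an outer-membrane relative, fell by 0.26 (SE 0.05, adjusted p = 0.00785).

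The 8 adenine nucleotide and phosphate carriers held 1 fall and 0 rises. Slc25a5, the ADP/ATP carrier of growing cells, read 12.98, 12.93 and 12.97 in Klf5-deleted arrays, against 13.11, 13.16 and 13.11 in controls. The groups were apart, by little: the signal was 89.2% of the control level (−0.16, SE 0.04, adjusted p = 0.0375). The other 2 rows of this gene gave −0.18 (SE 0.04) and −0.18 (SE 0.05). Slc25a5 has processed copies of near-identical sequence, so which copy each row reads is uncertain. Its call was lost on leaving out any one of the 6 arrays (adjusted p = 0.0667 to 0.128). It was also lost with quantile normalization (adjusted p = 0.0644) and with a block for the replicate number (adjusted p = 0.136). Slc25a4, the ADP/ATP carrier of heart and muscle, read 12.81, 12.70 and 12.75 in Klf5-deleted arrays, against 12.71, 12.68 and 12.71 in controls and did not pass (0.06, SE 0.05, adjusted p = 0.49). The log2 ratio of Slc25a4 to Slc25a5 was −0.21 ± 0.03 in the Klf5-deleted arrays and −0.43 ± 0.04 in the controls (SD, n = 3 each, exact permutation p = 0.1). Of 13 skeletal and heart muscle genes, 0 passed limma's test, and of 10 smooth muscle genes 2 rose and 0 fell.

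Slc25a3, the phosphate carrier that feeds ATP synthase, read 12.83, 12.82 and 12.82 in Klf5-deleted arrays, against 12.85, 12.92 and 12.93 in controls. The groups did not overlap, and the difference did not pass (−0.08, SE 0.04, adjusted p = 0.269). Slc25a31, the ADP/ATP carrier of germ cells, had the largest estimate among the carriers that did not pass. It read 6.71, 5.69 and 6.16 in Klf5-deleted arrays, against 5.63, 5.47 and 5.19 in controls (0.76, SE 0.24, adjusted p = 0.0713). These signals are low on the array, where the scale starts at 3.51, and the 3 Klf5-deleted arrays were widely spread. On dropping Klf5-deleted replicate 1 the estimate was 0.50 (adjusted p = 0.0993), on dropping replicate 2 of that group it was 1.01 (adjusted p = 0.0170), and leaving out any one of the other 4 arrays gave adjusted p of 0.0979 to 0.207. The calcium-regulated ATP-Mg/phosphate carriers Slc25a23, Slc25a24 and Slc25a25 and their relative Slc25a41 lay between −0.06 and 0.04. Among 9 partner genes of adenine nucleotide exchange, 3 fell and 0 rose. Ckmt1, mitochondrial creatine kinase, fell by 1.81 (SE 0.12), the adenylate kinase gene Ak4 by 0.98 (SE 0.07), and Ppif, which encodes cyclophilin D, by 0.55 (SE 0.04). The ATP synthase genes Atp5a1 and Atp5b, named after their values were seen, did not pass, at −0.07 (SE 0.04) and −0.03 (SE 0.04).

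Of the 10 carriers of cofactors, nucleotides and glutathione, 1 fell and 0 rose. Slc25a39, a glutathione carrier, read 11.60, 11.59 and 11.59 in Klf5-deleted arrays, against 11.86, 11.90 and 11.77 in controls (−0.25, SE 0.05, adjusted p = 0.0117). The Klf5-deleted arrays were nearly identical to each other. Its paralog Slc25a40 read 8.66, 8.44 and 8.46 in Klf5-deleted arrays, against 8.53, 8.50 and 8.48 in controls and did not pass (0.02, SE 0.07, 95% interval −0.14 to 0.17, adjusted p = 0.897). The log2 ratio of Slc25a39 to Slc25a40 was 3.07 ± 0.12 in the Klf5-deleted arrays and 3.34 ± 0.05 in the controls (SD, n = 3 each, exact permutation p = 0.1).

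The groups did not overlap for 3 further members of this set, none of which passed. Slc25a26, the S-adenosylmethionine carrier, was at −0.19 (SE 0.06, adjusted p = 0.0714). Slc25a32, the folate carrier, was at −0.17 (SE 0.06, adjusted p = 0.0935). Slc25a17, a carrier of peroxisomes rather than mitochondria, was at 0.16 (SE 0.06, adjusted p = 0.0992) and passed without Klf5-deleted replicate 2 (0.21, adjusted p = 0.0329), whereas leaving out any one of the other 5 arrays gave adjusted p of 0.160 to 0.259. The other 5, which include the pyrimidine nucleotide carriers Slc25a33 and Slc25a36 and the NAD carrier Slc25a51, lay between −0.00 and 0.08. Beside the folate carrier, 5 of 12 genes of folate, one-carbon and glycine metabolism fell and 3 rose. Mthfd1l and Mthfd1, enzymes of folate interconversion, fell by 0.43 (SE 0.05) and 0.40 (SE 0.05), and the serine hydroxymethyltransferase genes Shmt1 and Shmt2 fell by 0.50 (SE 0.07) and 0.54 (SE 0.08). The rises were those of Gldc, the glycine decarboxylase gene (0.43, SE 0.10), Aldh1l2 (0.41, SE 0.10) and Mthfd2l (0.31, SE 0.08), which are named in addition to the smallest p values.

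Slc25a20, the carnitine/acylcarnitine carrier, which brings fatty acids in for oxidation, read 10.23, 10.19 and 10.29 in Klf5-deleted arrays, against 10.15, 10.29 and 10.30 in controls. The groups overlapped (−0.01, SE 0.06, 95% interval −0.15 to 0.12, adjusted p = 0.905). On the list of 12 carnitine shuttle genes, 2 fell and 1 rose. Acsl5, an acyl-CoA synthetase gene of the intestine, fell by 0.88 (SE 0.07), Cpt2, the inner carnitine palmitoyltransferase gene, fell by 0.33 (SE 0.05), and Cpt1c, the brain form of the outer enzyme, rose by 0.30 (SE 0.04).

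Neither mitoferrin gene, whose products bring iron to the matrix, passed. Slc25a37, mitoferrin-1, which red cell precursors need for heme, read 9.72, 10.64 and 10.42 in Klf5-deleted arrays, against 10.31, 10.18 and 10.50 in controls. Klf5-deleted replicate 1 was lowest of the 6, and the interval of the difference was wide (−0.07, SE 0.22, 95% interval −0.58 to 0.44, adjusted p = 0.886). Alas2, the erythroid enzyme that starts heme synthesis, read 9.70, 10.70 and 10.94 in the Klf5-deleted arrays, against 10.27, 9.97 and 10.63 in the controls, so the same array was lowest for both genes. Alas2 was named after its values were seen and did not pass (0.16, SE 0.31, adjusted p = 0.803). Of 9 measured red cell genes, 2 rose and 1 fell, with summed signals of 18863 to 25656 in Klf5-deleted arrays, against 14667 to 19889 in controls. Slc25a28, mitoferrin-2, which is not specific to red cells, was at −0.07 (SE 0.06, adjusted p = 0.547). The log2 ratio of Slc25a28 to Slc25a37 was −0.52 ± 0.45 in the Klf5-deleted arrays and −0.52 ± 0.26 in the controls (SD, n = 3 each, exact permutation p = 1.0). Among 17 iron-sulfur and heme genes, 1 fell and 0 rose. It was Nfs1, the cysteine desulfurase gene that supplies sulfur to iron-sulfur clusters (−0.52, SE 0.06, adjusted p = 0.001). Slc25a46, an outer-membrane member that takes part in mitochondrial shape, was at 0.03 (SE 0.05, adjusted p = 0.795).

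Of 8 carriers to which no role is given here, 1 fell and 1 rose, and both are X-linked. Slc25a43 read 8.35, 8.28 and 8.39 in Klf5-deleted arrays, against 8.64, 8.70 and 8.70 in controls (−0.34, SE 0.05, adjusted p = 0.00335). Slc25a53 read 7.62, 8.06 and 7.67 in Klf5-deleted arrays, against 7.48, 7.08 and 7.32 in controls (0.49, SE 0.14, adjusted p = 0.0497). The groups were apart for both, but by little for Slc25a53. Slc25a53 still passed when Klf5-deleted replicate 1 was dropped, but not when replicate 2 or 3 of that group was (adjusted p of 0.0935 and 0.0805), nor on dropping control replicate 1, 2 or 3 (0.0510, 0.147 and 0.120). Quantile normalization (adjusted p = 0.0589) and a block for the replicate number (0.135) also lost its call, which was kept in 6 of 15 alternative fits. Slc25a35 was at 0.16 (SE 0.06, adjusted p = 0.135) with groups that did not overlap, and the other 5 lay between −0.11 and 0.11.

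The 4 X-linked carriers, Slc25a5, Slc25a14, Slc25a43 and Slc25a53, all had groups that did not overlap, 2 lower and 2 higher in the Klf5-deleted arrays. Among the 739 X-linked genes measured, the groups did not overlap for 274, of which 71 were lower and 203 higher. By the test, 1 of these carriers rose and 2 fell, and 95 X-linked genes rose and 38 fell. Sex-linked signals moved with genotype in these pools. Xist, which is made from the inactive X of females, read 5.89 to 6.47 in Klf5-deleted arrays, against 11.93 to 12.61 in controls. With the male share as a covariate, the 10 called carriers kept their direction and 0 of the 46 passed limma's test. At an unadjusted p under 0.05 there were 9 of the 46 carriers, against 2882 of all 19938 genes. The log2 fold change was −1.13 for Slc25a15 in that fit (adjusted p = 0.107) and −0.46 for Slc25a1 (adjusted p = 0.205). For Slc25a53 it was 0.92, against 0.49 without the covariate. In that fit the median SE over all genes was 0.15, against 0.06. Every Klf5-deleted pool had a higher male share than every control, so sex and Klf5 cannot be told apart in these arrays.

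**Figure D3:**
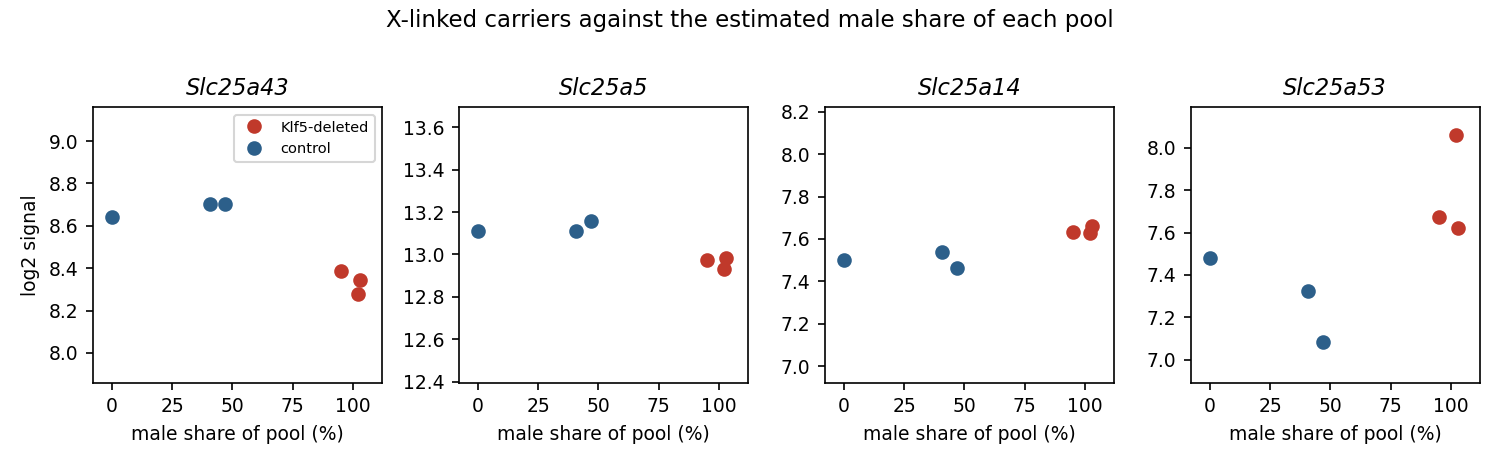
Log2 signal of the 4 X-linked carriers (vertical axes of equal span) against the male share of each pool, the summed signal of Eif2s3y, Kdm5d and Uty (horizontal axis, percent, with the lowest array set to 0 and the mean of the Klf5-deleted arrays to 100). The 3 Klf5-deleted arrays lie at 95.0% to 103%, and the controls at 0% to 47.1%, so no male share is held by both groups.

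Carriers enter mitochondria through the TOM complex, which is not specific to them, and the small TIM chaperones. Of 15 measured genes of the TOM complex and the TIM chaperones and insertase, 9 fell and 0 rose, with a median of −0.20. Timm8a1, a small chaperone of the intermembrane space that is X-linked, read 9.34, 9.26 and 9.30 in Klf5-deleted arrays, against 9.71, 9.78 and 9.84 in controls (−0.48, SE 0.05, adjusted p = 0.00103). Tomm5 fell by 0.44 (SE 0.07), Tomm40, the channel of the outer membrane, by 0.27 (SE 0.05), and Tomm70a, the receptor for carrier precursors, by 0.17 (SE 0.04). Timm22, the inner-membrane insertase for carriers, was at 0.03 (SE 0.06, adjusted p = 0.79) and was named after its value was seen. Timm29 and Agk, on the same list, were at 0.04 (SE 0.07) and −0.01 (SE 0.04). They did not pass and were also named after their values were seen. Among 12 other transporters and channels of the inner membrane, 3 fell and 1 rose. The falls were those of Abcb8 (−0.27, SE 0.04), the serine transporter gene Sfxn1 (−0.27, SE 0.05) and the calcium uniporter gene Mcu (−0.33, SE 0.06), and Sfxn4 rose (0.40, SE 0.10). Of 25 genes of mitochondrial mass and biogenesis, 8 fell and 1 rose, with a median of −0.11. The coactivator gene Ppargc1b fell by 0.54 (SE 0.05), the nuclear receptor gene Esrra by 0.32 (SE 0.05) and the matrix chaperone gene Hspd1 by 0.25 (SE 0.05), whereas Ppargc1a rose by 0.32 (SE 0.06). The shares of all genes that fell and rose are those given above, 8.58% and 8.95%.

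**Figure D4:**
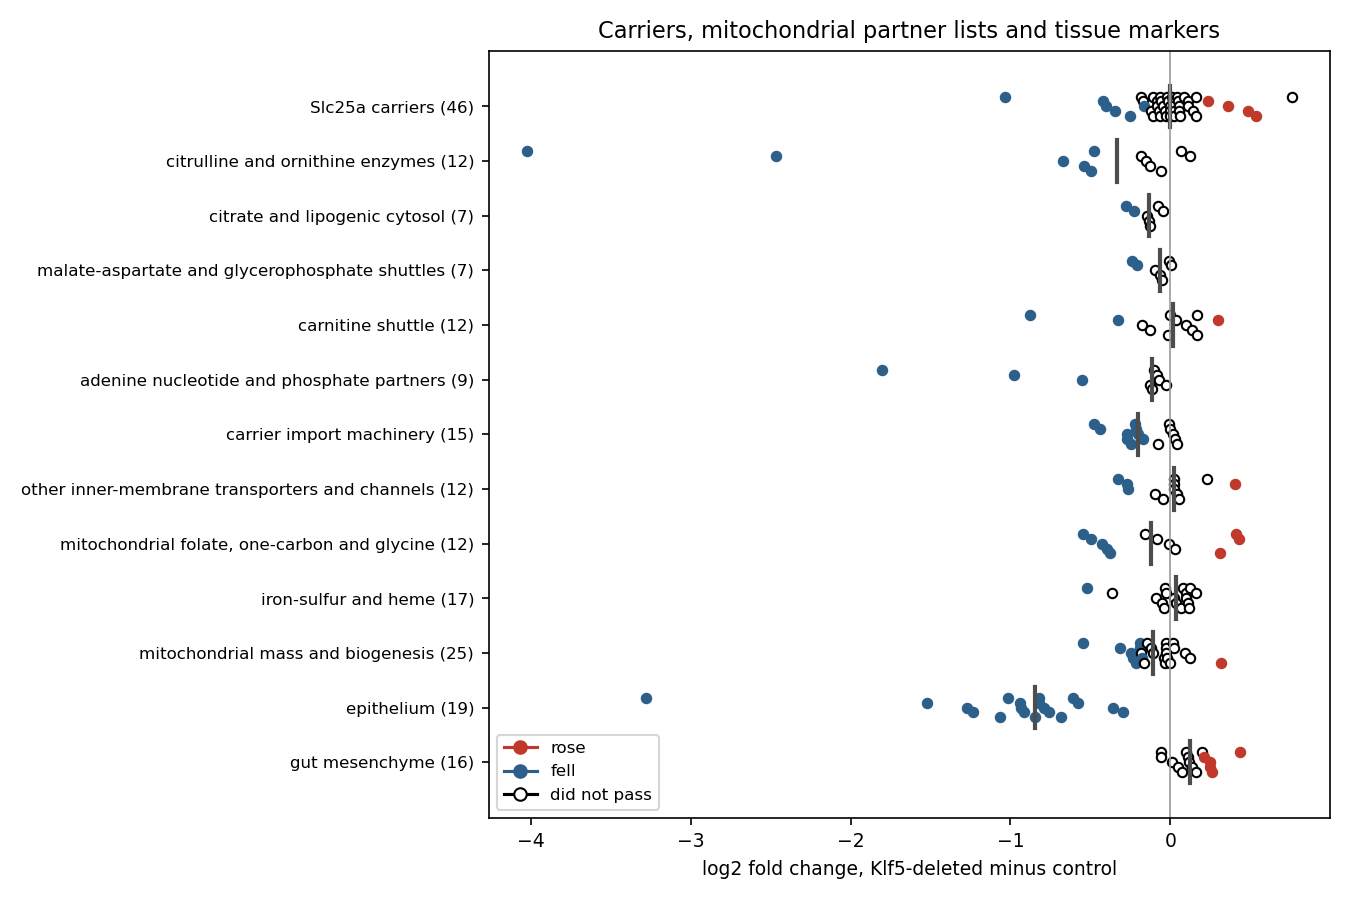
Log2 fold change (horizontal axis, Klf5-deleted minus control) of the carriers, of 10 lists of mitochondrial partner genes and of epithelial and mesenchymal markers, one point per gene, with the number of genes in brackets and the median as a bar. The carriers centre on −0.00, the import machinery on −0.20 and the epithelial markers on −0.85.

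Markers of other cell types were counted in the same way. Of 16 enterocyte genes, 12 fell and 0 rose, and of 8 mesothelial genes 6 rose and 2 fell. None of the 10 endothelial, 9 liver, 6 pancreas or 11 proliferation genes passed limma's test, and 1 of 10 leukocyte genes fell. Summed signals of the liver genes were 4128 to 14567 in Klf5-deleted arrays, against 6424 to 9694 in controls.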

How the data were processed

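Affymetrix Mouse Gene ST arrays measured RNA of 6 pools, and groups and replicate numbers came from the sample titles. The deposited log2 signals are RMA values. Per the submitters' processing notes, the software was Expression Console 1.1. Values ranged from 3.51 to 14.3. As a method, RMA aligns the distributions of the arrays and so hides changes that most genes share, and dim genes change less on the array than in tissue. No source used here gives the genome build of the array annotation.

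Of 35557 rows, 21789 had 1 gene symbol, 1621 had several and 12147 are unnamed here. Symbols were updated by gene ID to RefSeq of GRCm38.p6 (21698 rows matched), and the row with the highest mean was taken for each of the 19938 genes. The 46 carriers had 50 rows, and 3 of them had more than 1 row. The comparison used lmFit and eBayes of limma 3.58.1 under R 4.3.3, with Benjamini-Hochberg adjustment over all 19938 genes and a threshold of 0.05. "Fell" and "rose" are used of genes past it. The fit was tested on simulated data with known changes. Single ratios were compared by exact permutation.

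The members and the 25 gene lists (320 genes, of which 282 were measured and 38 were not analysed here) were chosen with earlier results of these data known. Named are Klf5, carriers that passed, that are X-linked, brightest, not overlapping or of smallest p in their substrate group, and for each partner list all genes that passed if at most 3, else the 4 with the smallest p. Exceptions are marked, except the paralogs and family members set beside a named gene. Alternatives were each array left out, a block for the replicate number, quantile normalization, median centring, 2 filters on dim genes, a trend with robust variance, array weights, other probe set rules, a threshold of 0.1 and the male share as a covariate. No source used here says if the pools were of different litters. The p values therefore rest on the spread among these 6 pools, which may be technical, and their number limits the precision.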

Additional observations from a re-analysis of the deposited data

How the results depend on the processing

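The number of carriers past the threshold was 10, and between 7 and 9 without any 1 array. Carriers higher numbered 2 to 4 in those fits (2 without Klf5-deleted replicate 3, control replicate 1 or control replicate 2), against 4. Among all genes, 2000 to 2757 passed, 868 to 1363 of them higher and 1132 to 1394 lower, against 3496, 1785 and 1711, with the fewest without control replicate 2. With the replicate number as a block, 6 carriers passed, 2 of them higher, and 2008 genes in all, 900 higher and 1108 lower. Slc25a39 was among the calls lost there (adjusted p = 0.0517). Samples with the same number did not deviate together (correlations of −0.14, −0.27 and −0.03), so the numbers were not taken to pair them. With the male share as covariate, 0 carriers passed limma's test, 0 higher and 0 lower, and 83 genes in all, 4 higher and 79 lower. In that fit 9 of 46 carriers were at an unadjusted p under 0.05, against 2882 of 19938 genes. With the lowest 50% of genes left out, 27 carriers were tested and 2 were called higher. These were Slc25a30 (adjusted p = 0.0155) and Slc25a17 (adjusted p = 0.0464), which did not pass in the main fit. The called carriers Slc25a21, Slc25a27, Slc25a53 and Slc25a43 were among the dim genes left out and so were not tested there. At an adjusted p of 0.1, 7 were higher. With all rows tested on their own, 11 carrier rows passed, 3 of them of Slc25a5, and Slc25a53 did not (adjusted p = 0.05). Median centring gave 1216 genes higher and 1767 lower, against 1785 and 1711.

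None of the 10 called carriers changed sign in the 16 alternative fits, but not all of these could change it. The replicate block, the filters on dim genes, the trend with robust variance and separate rows kept the main estimate by construction. So did the mean of all rows for genes with a single row. The unchanged sign in those fits is therefore not read as a result. Of the 36 other carriers, 21 changed sign in at least 1 fit, with sizes of at most 0.28 and adjusted p of at least 0.257. With 1 array left out, Slc25a20 ran from −0.064 to 0.013, Slc25a37 from −0.25 to 0.20, Slc25a40 from −0.052 to 0.058, Slc25a51 from −0.039 to 0.034, Slc25a18 from −0.072 to 0.041, Slc25a33 from −0.022 to 0.023, Slc25a25 from −0.011 to 0.066 and Slc25a41 from −0.091 to 0.027. Slc25a23 and Slc25a36 turned sign in 1 other setting each, at −0.014 and −0.0052. With the male share as covariate, Slc25a12 was at −0.0089, Slc25a28 at 0.033, Slc25a37 at 0.034, Slc25a44 at 0.11 and Slc25a46 at −0.10. With array weights Slc25a37 was at 0.018, Slc25a40 at −0.0089 and Slc25a46 at −0.0042, and with median centring Slc25a40 was at −0.0030. The median over the carriers, −0.00, was −0.025 with quantile normalization, −0.023 with median centring, −0.065 with the lowest 50% of genes left out and 0.020 with the male share. The causes were not tested.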
